A study of Rattus norvegicus with 24 samples.

Results

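The 10 genes described here encode enzymes and electron carriers of mitochondrial fatty acid oxidation: Cpt1a, Cpt2, Acadvl, Acadl, Acadm, Hadha, Hadhb, Acaa2, Etfa and Etfdh. They were chosen by name, as the rows of the count table whose gene name is a member, and make up 10 of the 34523 genes of that table. Each name matched a single row, and all 10 passed the filter on low counts that left 14770 genes for testing. RNA was sequenced from rat PMVECs, pulmonary microvascular endothelial cells, which form the inner wall of the smallest lung vessels. They were either wild type (WT) or PFKFB3 knockout (KO). PFKFB3 is an enzyme that sets the level of a sugar bisphosphate which speeds up glycolysis. Cells of each genotype spent 24 h in normoxia or hypoxia, in medium with either glucose or fructose at 25 mM, so that 8 groups of 3 libraries resulted. All groups share the cell line, the sugar concentration and the time. No group had both sugars or neither, so an effect of fructose cannot be told apart from an effect of lacking glucose. The labels give neither the oxygen level, nor the altered part of Pfkfb3, nor the number of clones. They number the samples without saying whether these were separate cultures, so p-values measure no more than the spread of the samples given, and that spread may be technical.

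Long-chain fatty acids enter the mitochondrial matrix as carnitine esters. CPT1 at the outer membrane makes the ester, which is the regulated step of the pathway and is inhibited by malonyl-CoA, and CPT2 at the inner membrane turns it back into an acyl-CoA. In the matrix each cycle of beta-oxidation runs through an acyl-CoA dehydrogenase, a hydratase, a hydroxyacyl-CoA dehydrogenase and a thiolase, and the electrons taken up by the first of these pass through the electron transfer flavoprotein (ETF) and its dehydrogenase to ubiquinone. Endothelial cells rely mostly on glycolysis for ATP, and fatty acid oxidation in them is known mainly for feeding carbon into nucleotide synthesis and for redox balance.

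Library totals lay between 14344010 and 23028807 counts. A level below is a count scaled to CPM (counts per 1e+06) on a library size scaled by TMM, and a fold change is on the log2 scale with its standard error (SE). Pfkfb3 itself was still transcribed in the KO, at 31.4 to 63.3 CPM over 12 libraries against 55.5 to 174 CPM over 12 WT libraries. In each of the 4 media the 3 KO libraries were below the 3 WT ones, and the log2 fold change of Pfkfb3 was -0.59 ± 0.09 in normoxia glucose, -1.77 ± 0.09 in normoxia fructose, -0.56 ± 0.09 in hypoxia glucose and -1.50 ± 0.09 in hypoxia fructose. Of 10 endothelial markers, Emcn had no counts, and Cdh5 and Kdr stayed at or below 0.514 and 0.538 CPM, while Flt1 and Vwf were present at 32.5 to 207 and 6.55 to 64.0 CPM. The label of an endothelial cell is therefore met by some of its defining markers and not by others. The summed level of these 10 markers was 51.02 to 113 CPM in WT and 222 to 310.1 CPM in KO libraries, with Flt1 the largest part. Of the 7 that were tested 5 were higher and 1 lower in KO normoxia glucose, beside 22.7% and 23.7% of all tested genes. Tie1, Flt1, Vwf and Icam2 were higher in KO in all 4 media, and Eng in all but normoxia fructose. Tek was lower with glucose alone, and Erg passed in no medium.

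All 10 genes were expressed in all 24 libraries, and together they took 639 to 857 CPM of a library. Levels of different genes are compared per kilobase (kb) of the gene length in the table. In WT normoxia glucose the highest mean level was that of Hadhb, 72.6 CPM per kb, followed by Etfa at 67.1, Hadha at 59.3, Acadl at 51.1, Acadvl at 38.8 and Cpt1a at 32.3 CPM per kb. The remaining 4 were lower, with Acaa2 at 16.8, Acadm at 15.4, Etfdh at 12.03 and Cpt2 at 7.03 CPM per kb. The trifunctional protein subunits and Etfa thus had the highest levels, and CPT2 and the ETF dehydrogenase the lowest. The genes differed in how far they ranged over the 8 groups: the highest group mean exceeded the lowest 3.82-fold for Cpt1a, 3.55-fold for Acaa2, 2.74-fold for Acadm, 2.32-fold for Hadhb and 2.13-fold for Acadvl, and 1.37-fold for both Hadha and Etfdh. In a bulk sample fewer cells that express a gene and less RNA per cell cannot be told apart.

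**Figure D1:**
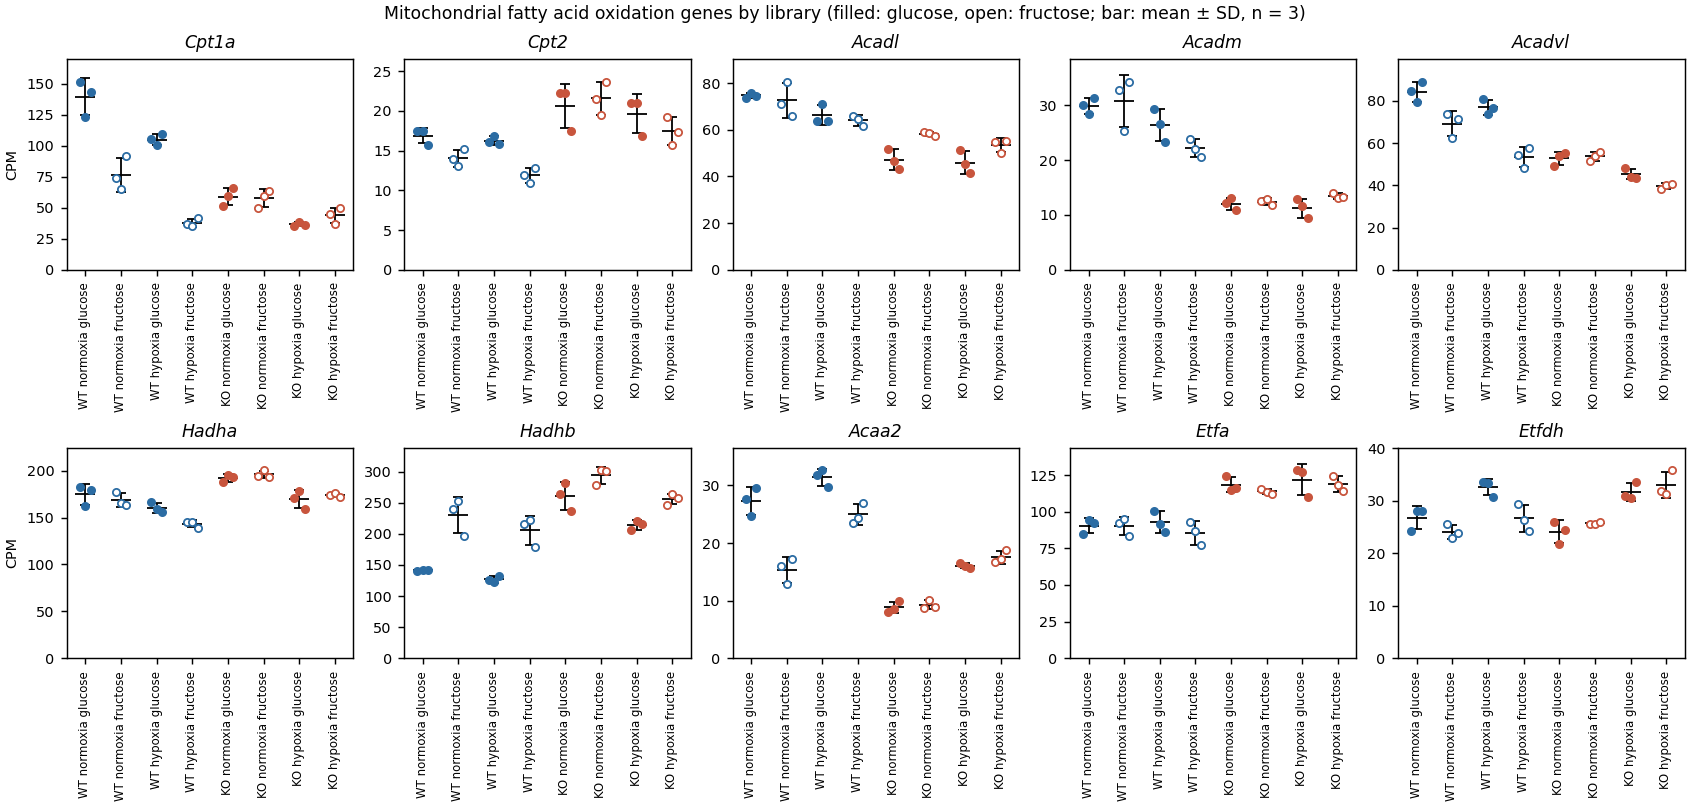
Level in CPM of each of the 10 genes in the 24 libraries, by group; points are libraries, blue for WT and red for KO, filled for glucose and open for fructose, and bars are the mean ± SD of 3 libraries. Cpt1a runs from 123 to 152 CPM in WT normoxia glucose down to 35.3 to 41.4 CPM in WT hypoxia fructose, while its 12 KO libraries lie between 35.3 and 65.9 CPM.

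The comparison of KO with WT asks how these genes differ between the genotypes in each medium. Since the number of clones is not given, an effect of the knockout cannot be told apart from a difference between clones. Acadl, Acadm, Acadvl and Acaa2 fell in KO cells in all 4 media, down to a log2 fold change of -1.62 for Acaa2 in normoxia glucose, and Cpt1a fell in 3 of the 4. Hadhb and Etfa rose in all 4 media, with the widest rise that of Hadhb in normoxia glucose at 0.88. Cpt2 and Hadha rose with fructose, while their values with glucose did not pass the test, and Etfdh rose in hypoxia fructose. The pathway therefore did not move as a block: the 3 acyl-CoA dehydrogenases and Acaa2 were lower, and Hadhb and Etfa were higher.

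By edgeR's quasi-likelihood test with a threshold of 0.05 on the adjusted p, 2 of the 10 genes were higher and 5 lower in KO normoxia glucose, where 22.7% and 23.7% of all tested genes were called higher and lower. In normoxia fructose 4 were higher and 5 lower, against 25.7% and 28% of all genes. In hypoxia glucose the counts were 2 and 5, against 24.3% and 24.1%. In hypoxia fructose they were 5 and 4, against 25.7% and 28.8%. With shares of this size a call of KO against WT is common in these data, and the counts of the 10 genes are read against that.

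The median log2 fold change of the 10 genes was -0.41, -0.11, -0.28 and 0.25 in the 4 media, in the same order, beside 0.02, -0.03, 0.01 and -0.03 over all tested genes. Markers of other cell types also moved with genotype. The summed level of 6 fibroblast markers, of which Lum had no counts and Dcn stayed at or below 0.0558 CPM, was 5956 to 17928 CPM in WT and 2379.7 to 4443 CPM in KO, and came almost wholly from the collagens Col1a1 and Col1a2. The sum of 6 epithelial markers was 664 to 1142 CPM in WT and 1534 to 2915 CPM in KO, nearly all of it Krt8. The sum of 6 smooth muscle and pericyte markers was 65.2 to 284 CPM in WT and 139.9 to 278 CPM in KO, and that of 6 leukocyte markers 2.38 to 5.44 and 3.02 to 19.6 CPM. Of these lists 3 of 6, 5 of 6, 5 of 6 and 3 of 6 genes were tested. In normoxia glucose 3, 1, 1 and 0 of them were called lower in KO, and 0, 3, 3 and 1 higher. Their part in the results on genotype was not tested.

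**Figure D2:**
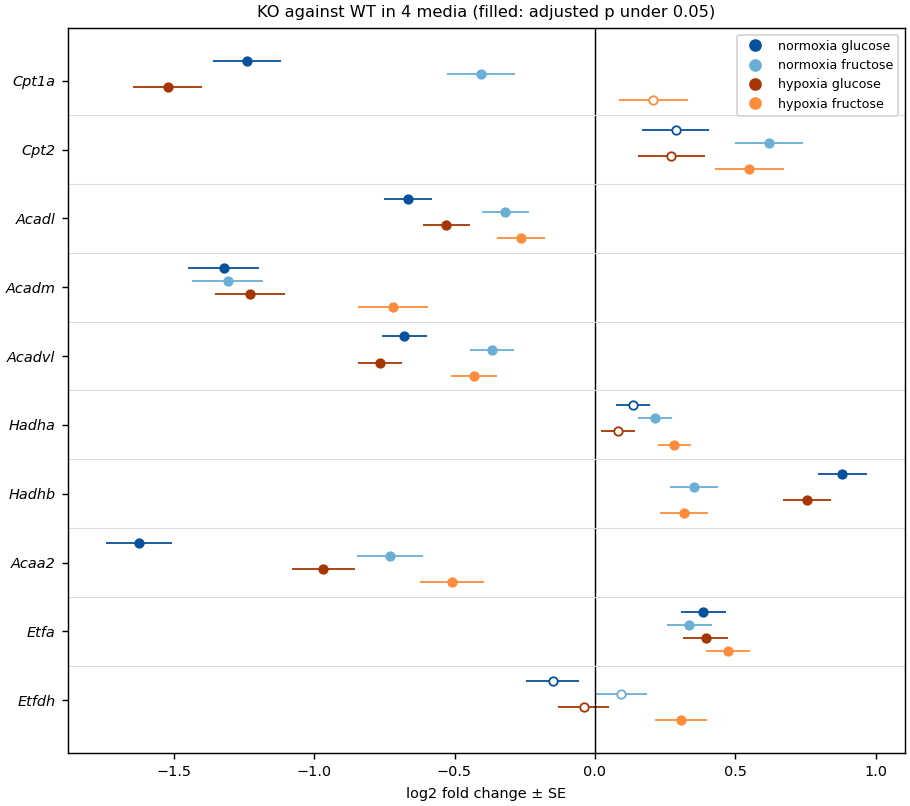
Log2 fold change ± SE of KO against WT for the 10 genes in each of the 4 media, from 3 libraries a group; filled points passed an adjusted p of 0.05. Acadm stays between -1.32 and -0.72, whereas Cpt1a spans -1.52 to 0.21 and Hadhb lies to the right of 0 in all 4 media.

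Cpt1a encodes the liver-type carnitine palmitoyltransferase of the outer membrane, which commits long-chain fatty acids to oxidation. It lies at chr1:218569510-218629678, plus strand in Rnor_6.0, the build of all gene positions here. Its WT libraries held 152, 123 and 144 CPM in normoxia glucose, 73.9, 64.8 and 91.5 in normoxia fructose, 105, 101 and 109 in hypoxia glucose and 36.9, 35.3 and 41.4 in hypoxia fructose. These 4 WT groups did not overlap, and each change of sugar or oxygen away from normoxia glucose went with a lower level. The KO libraries held 51.7, 59.7 and 65.9 CPM in normoxia glucose, 50.03, 59.6 and 63.8 in normoxia fructose, 35.3, 38.5 and 36.04 in hypoxia glucose and 44.7, 37.3 and 49.5 in hypoxia fructose. Here the sugars overlapped within each oxygen condition, and all 12 KO libraries lay below the 6 WT libraries with glucose.

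In KO against WT, Cpt1a fell by 1.24 on the log2 scale in normoxia glucose (SE 0.12, adjusted p = 1.09e-08) and by 1.52 in hypoxia glucose (SE 0.12, adjusted p = 4.58e-10). The change was smaller in normoxia fructose, -0.41 ± 0.12, adjusted p = 0.00659, and that call was lost without WT normoxia fructose replicate 3 (adjusted p = 0.0745) or KO normoxia fructose replicate 1 (adjusted p = 0.0515). In hypoxia fructose the groups overlapped and the value was 0.21 ± 0.12, adjusted p = 0.162, which passed only without KO hypoxia fructose replicate 2 (0.31, adjusted p = 0.0471). Within WT, fructose against glucose went with a Cpt1a level that fell by 0.87 in normoxia (SE 0.12, adjusted p = 3.13e-06) and by 1.47 in hypoxia (SE 0.12, adjusted p = 8.7e-10). Within KO the same comparison gave -0.03 ± 0.12 (95% interval -0.28 to 0.22) and 0.26 ± 0.12 (95% interval 0.00 to 0.51), neither of which passed.

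The other CPT1 genes were lower in level. Cpt1b, the muscle-type form, had group means of 1.48 to 2.82 CPM per kb and Cpt1c, the brain-type form, 3.51 to 6.15 CPM per kb, against 8.46 to 32.3 CPM per kb for Cpt1a. Cpt1a made up 84.1% ± 4.91 (SD, n = 3) of the sum of the 3 genes per kb in WT normoxia glucose, 69.0% ± 1.11 in WT normoxia fructose, 78.8% ± 2.17 in WT hypoxia glucose and 59.6% ± 0.803 in WT hypoxia fructose. In KO cells the share lay at 68.2% ± 2.84 and 68.3% ± 2.90 in normoxia with glucose and fructose, and at 58.8% ± 5.38 and 61.7% ± 3.06 in hypoxia. The highest KO library, at 71.4%, thus lay below the lowest WT library with glucose, at 76.4%. The share is one of RNA and does not measure the activity of the 3 proteins. No test was run on it.

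The promoter window of Cpt1a is shown because this gene had the widest range of the 10. It runs from 250 bases before to 50 bases after the RefSeq start, on the plus strand of GRCr8 at chr1:209995910-209996209, and holds none of the 5 motifs searched below, so no letters are in capitals.
Cpt1a: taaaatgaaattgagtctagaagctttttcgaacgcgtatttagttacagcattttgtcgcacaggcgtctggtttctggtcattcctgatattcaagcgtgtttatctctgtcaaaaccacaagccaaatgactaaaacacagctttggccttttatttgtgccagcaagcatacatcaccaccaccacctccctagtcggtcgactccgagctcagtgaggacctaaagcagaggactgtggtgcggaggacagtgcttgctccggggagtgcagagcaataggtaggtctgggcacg

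Cpt2 (chr5:127505614-127523089, minus strand), which releases the acyl-CoA on the matrix side, went the other way. Over the 12 WT libraries its level was 10.97 to 17.5 CPM and over the 12 KO libraries 15.7 to 23.7 CPM, so the genotypes overlapped as a whole. They did not overlap with fructose, where Cpt2 rose in KO by 0.62 ± 0.12, adjusted p = 0.000136 in normoxia and by 0.55 ± 0.12, adjusted p = 0.000516 in hypoxia. With glucose the libraries overlapped, and the values were 0.29 ± 0.12, adjusted p = 0.0537 in normoxia, beside 0.27 ± 0.12, adjusted p = 0.0648 in hypoxia. Both of these passed without the third KO library of that medium, at 0.40 (adjusted p = 0.013) and 0.37 (adjusted p = 0.0202). In WT hypoxia Cpt2 fell with fructose, -0.45 ± 0.12, adjusted p = 0.00383.

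The 3 acyl-CoA dehydrogenases of overlapping chain length open each cycle: Acadvl (chr10:56619303-56624526, minus strand) for very long, Acadl (chr9:73833388-73871888, minus strand) for long and Acadm (chr2:260124418-260148589, minus strand) for medium-length chains. Of the 3, Acadm fell furthest in KO. Its WT libraries held 30.1, 28.5 and 31.4 CPM in normoxia glucose, 32.7, 25.4 and 34.4 in normoxia fructose, 29.3, 26.7 and 23.4 in hypoxia glucose and 23.9, 22.1 and 20.6 in hypoxia fructose. The KO libraries held 12.2, 13.02 and 10.8 CPM in normoxia glucose, 12.5, 12.98 and 11.8 in normoxia fructose, 12.8, 11.6 and 9.38 in hypoxia glucose and 14.1, 13.1 and 13.3 in hypoxia fructose. The 12 KO libraries were the 12 lowest. The log2 fold change was -1.32 ± 0.13, adjusted p = 5.44e-09 in normoxia glucose, -1.31 ± 0.13, adjusted p = 4.26e-09 in normoxia fructose, -1.23 ± 0.13, adjusted p = 1.61e-08 in hypoxia glucose and -0.72 ± 0.12, adjusted p = 2.94e-05 in hypoxia fructose.

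Acadvl ran from 48.1 to 89.2 CPM in WT and 38.1 to 55.6 CPM in KO libraries, and fell in KO in each medium without overlap, by 0.68, 0.37, 0.77 and 0.43 on the log2 scale (SE 0.08 in each), with adjusted p between 2.26e-08 and 0.000411. Acadl ran from 61.6 to 80.6 CPM in WT and 41.3 to 58.8 CPM in KO libraries, and the highest KO library was below the lowest WT library. It fell by 0.66 and 0.53 with glucose and by 0.32 and 0.26 with fructose, in normoxia and hypoxia in turn, with adjusted p between 6.58e-07 and 0.0111. The call of Acadl in hypoxia fructose was lost without KO hypoxia fructose replicate 2 (-0.22, adjusted p = 0.0594). The chromosomal neighbours of Acadm and Acadvl were lower in KO too: the median log2 fold change of the tested genes nearest to each, up to 20 on either side, was -0.65 to -0.31 over the 4 media for Acadm (33 genes) and -0.58 to -0.34 for Acadvl (40 genes). For Acadl it was -0.40 to -0.18, and for the other 7 genes it lay between -0.07 and 0.31. The part of the neighbourhood in the results was not tested. Short RNA genes on the opposite strand lie within Acadl, Acadm and Acadvl and held 1, 0 and 21 counts in all 24 libraries together.

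Hadha and Hadhb encode the alpha and beta subunits of the mitochondrial trifunctional protein. The alpha subunit carries the hydratase and the long-chain hydroxyacyl-CoA dehydrogenase, the beta subunit carries the thiolase, and the complex holds the subunits in equal numbers. The genes lie head to head, Hadha at chr6:27589657-27629175, plus strand, and Hadhb at chr6:27555412-27582995, minus strand. Their RefSeq windows in GRCr8, each from 250 bases before to 50 bases after the start, share 200 bases, with starts 300 bases apart. In the Rnor_6.0 annotation of the count table the facing ends of the genes are 6661 bases apart. Both windows are printed because this shared stretch, in capitals, lies upstream of genes whose levels moved apart; Hadha is at chr6:31907551-31907850 on the plus strand and Hadhb at chr6:31907451-31907750 on the minus strand, each read 5′ to 3′ on its own strand.
Hadha: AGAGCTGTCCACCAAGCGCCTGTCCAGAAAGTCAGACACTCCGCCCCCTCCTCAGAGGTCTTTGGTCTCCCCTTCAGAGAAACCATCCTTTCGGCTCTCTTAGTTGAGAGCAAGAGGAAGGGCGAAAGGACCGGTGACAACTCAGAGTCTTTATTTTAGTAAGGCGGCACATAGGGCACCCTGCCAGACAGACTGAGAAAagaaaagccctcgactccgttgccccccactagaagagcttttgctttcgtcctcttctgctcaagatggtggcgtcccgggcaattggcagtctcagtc
Hadhb: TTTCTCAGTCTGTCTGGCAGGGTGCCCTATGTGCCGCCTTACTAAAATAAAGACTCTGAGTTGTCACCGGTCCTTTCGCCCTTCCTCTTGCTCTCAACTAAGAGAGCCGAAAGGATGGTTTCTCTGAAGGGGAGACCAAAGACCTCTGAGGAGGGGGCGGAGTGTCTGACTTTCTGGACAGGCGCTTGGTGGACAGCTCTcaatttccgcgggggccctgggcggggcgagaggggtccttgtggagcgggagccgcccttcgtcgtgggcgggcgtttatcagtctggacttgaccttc

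Hadhb was the gene of the 10 that rose most in KO and the only one that rose with fructose in WT. Its WT libraries held 140.2, 142 and 142 CPM in normoxia glucose, 240.4, 253 and 197 in normoxia fructose, 126, 122 and 132 in hypoxia glucose and 216, 221 and 179 in hypoxia fructose. The KO libraries held 264, 281 and 237 CPM in normoxia glucose, 278, 302 and 302 in normoxia fructose, 206, 221 and 216 in hypoxia glucose and 247, 263 and 257 in hypoxia fructose. The 6 WT libraries with glucose were the 6 lowest of the 24. In KO against WT the gene rose by 0.88 ± 0.09, adjusted p = 9.49e-09 in normoxia glucose, 0.35 ± 0.09, adjusted p = 0.00127 in normoxia fructose, 0.76 ± 0.09, adjusted p = 1.08e-07 in hypoxia glucose and 0.32 ± 0.09, adjusted p = 0.00309 in hypoxia fructose. Fructose against glucose gave 0.70 ± 0.09, adjusted p = 4.94e-07 in WT normoxia and 0.69 ± 0.09, adjusted p = 4.06e-07 in WT hypoxia.

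Hadha ranged less over the same groups. It ran from 139 to 183 CPM in WT and 159.5 to 200.4 CPM in KO libraries. In KO it rose by 0.22 ± 0.06, adjusted p = 0.00406 in normoxia fructose and by 0.28 ± 0.06, adjusted p = 0.000316 in hypoxia fructose, and its values with glucose were 0.14 ± 0.06, adjusted p = 0.0681 in normoxia, beside 0.08 ± 0.06, adjusted p = 0.275 in hypoxia. In normoxia glucose the libraries did not overlap, and the call appeared without WT normoxia glucose replicate 1 (0.17, adjusted p = 0.0456) and with DESeq2 (adjusted p = 0.0434). Fructose against glucose in WT hypoxia gave -0.16 ± 0.06, adjusted p = 0.0289, a call that was lost without WT hypoxia glucose replicate 1 (adjusted p = 0.112) or replicate 2 (adjusted p = 0.0519) or WT hypoxia fructose replicate 3 (adjusted p = 0.0992), and without the filter on low counts (adjusted p = 0.086) or in a fit of the compared groups alone (adjusted p = 0.0889).

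The ratio of Hadhb to Hadha counts within a library does not depend on library scaling. In the 6 WT libraries with glucose it was 0.767, 0.876 and 0.789 in normoxia and 0.758, 0.768 and 0.849 in hypoxia. In WT with fructose it was 1.36, 1.53 and 1.20 in normoxia and 1.49, 1.52 and 1.29 in hypoxia. The 12 KO libraries lay between 1.20 and 1.56. In KO hypoxia the sugars did not overlap, with 1.20, 1.23 and 1.36 with glucose and 1.42, 1.49 and 1.49 with fructose. Counts of Hadha thus exceeded those of Hadhb in the WT libraries with glucose and in no other library, with a gap from 0.876 to 1.20 and none in between. Per kb of gene length, Hadhb exceeded Hadha in all 24 libraries, by 1.15-fold to 2.36-fold. No test was run on the ratio.

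**Figure D3:**
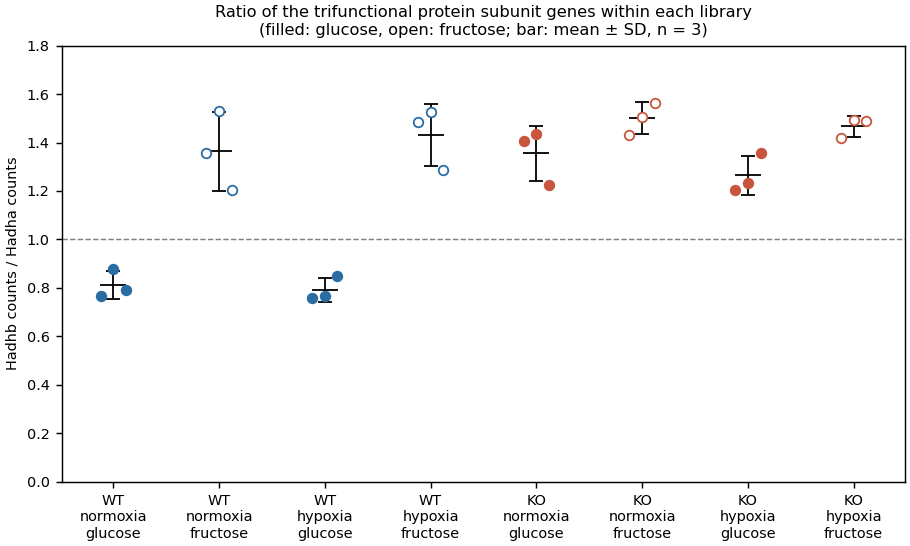
Ratio of Hadhb to Hadha counts in each of the 24 libraries, by group, with the mean ± SD of 3 libraries; the dashed line marks equal counts. The 6 WT libraries with glucose lie at 0.758 to 0.876, and the 18 others at 1.20 to 1.56.

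Acaa2 (chr18:70733872-70762395, plus strand) encodes the matrix 3-ketoacyl-CoA thiolase that closes the cycle for shorter chains. Its WT libraries held 27.7, 24.6 and 29.6 CPM in normoxia glucose, 15.97, 12.8 and 17.3 in normoxia fructose, 31.8, 32.6 and 29.8 in hypoxia glucose and 23.5, 24.4 and 26.99 in hypoxia fructose. The KO libraries held 8.02, 8.57 and 9.95 CPM in normoxia glucose, 8.69, 10.2 and 8.93 in normoxia fructose, 16.5, 16.02 and 15.6 in hypoxia glucose and 16.7, 17.2 and 18.8 in hypoxia fructose. No KO library reached the lowest WT library of its medium, and in KO both hypoxic groups lay above both normoxic ones. In KO against WT Acaa2 fell by 1.62 in normoxia glucose (SE 0.12, adjusted p = 4.9e-11), the widest change of any of the 10 genes in a simple comparison. It fell by 0.73 in normoxia fructose, 0.97 in hypoxia glucose and 0.51 in hypoxia fructose, with adjusted p of 1.31e-05, 1.49e-07 and 0.000498.

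Acaa2 was also the gene with the widest rise in hypoxia. Hypoxia against normoxia gave 0.70 ± 0.11, adjusted p = 5.9e-05 in WT fructose, 0.86 ± 0.12, adjusted p = 1.15e-05 in KO glucose and 0.92 ± 0.12, adjusted p = 2.65e-06 in KO fructose. In WT glucose the value was 0.20 ± 0.11, adjusted p = 0.366, and the groups did not overlap. In WT, fructose against glucose gave -0.83 ± 0.11, adjusted p = 2.41e-06 in the normoxic cells and -0.33 ± 0.11, adjusted p = 0.0179 in the hypoxic ones. The second of these was lost without WT hypoxia glucose replicate 2 (adjusted p = 0.061) or WT hypoxia fructose replicate 1 (adjusted p = 0.0723) or replicate 2 (adjusted p = 0.0561).

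Etfa (chr8:60028789-60086403, minus strand), the alpha subunit of ETF, accepts electrons from the acyl-CoA dehydrogenases, and Etfdh (chr2:178367549-178389608, minus strand) passes them to ubiquinone. Etfa was at 76.95 to 101 CPM in WT and 110.0 to 128 CPM in KO, and all 12 KO libraries lay above all 12 WT libraries. It rose in KO by 0.39 ± 0.08, adjusted p = 0.000292 in normoxia glucose, 0.34 ± 0.08 in normoxia fructose, 0.39 ± 0.08 in hypoxia glucose and 0.47 ± 0.08 in hypoxia fructose, with adjusted p of at most 0.000942 in the last 3. No comparison of sugars or of oxygen passed for Etfa, with values of -0.12 to -0.01 for sugar and -0.07 to 0.06 for oxygen. Etfdh overlapped between genotypes in 3 media, with values of -0.15 to 0.09, and rose in KO hypoxia fructose by 0.31 ± 0.09, adjusted p = 0.00701, a call lost without WT hypoxia fructose replicate 3 (0.24, adjusted p = 0.0513). Etfdh rose in hypoxia in KO cells, by 0.39 ± 0.09, adjusted p = 0.00493 with glucose and 0.36 ± 0.09, adjusted p = 0.00718 with fructose, and the KO libraries lay at 21.7 to 26.05 CPM in normoxia and 30.6 to 35.8 CPM in hypoxia.

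With fructose in place of glucose, members changed in WT cells. In WT normoxia Cpt1a, Acadvl and Acaa2 fell and Hadhb rose, and in WT hypoxia these 4 moved the same way while Cpt2, Hadha and Etfdh fell as well. In KO cells none of the 10 genes passed in either oxygen condition. The counts were 1 higher and 3 lower in WT normoxia, against 19.9% and 17.9% of all tested genes, and 1 higher and 6 lower in WT hypoxia, against 24.6% and 20.9%. In KO normoxia 1.14% and 0.65% of all genes were called higher and lower, and in KO hypoxia 2.69% and 2.73%, so a count of 0 among 10 genes is close to what all genes gave. At an unadjusted p under 0.05 edgeR gave 1 of the 10 in KO normoxia and 4 in KO hypoxia, and DESeq2 called 1 and 0.

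Acadvl fell with fructose, at -0.29 ± 0.08, adjusted p = 0.00519 in WT normoxia and -0.53 ± 0.08, adjusted p = 5.93e-06 in WT hypoxia, and the libraries did not overlap in either. Etfdh gave -0.29 ± 0.09, adjusted p = 0.0124 in WT hypoxia, which was lost without WT hypoxia fructose replicate 3 (adjusted p = 0.0792). The value of KO cells nearest to a call was that of Acadl in normoxia, 0.30 ± 0.09, adjusted p = 0.0713, which passed without KO normoxia glucose replicate 1 (0.38, adjusted p = 0.0427) and with DESeq2 (adjusted p = 0.0379). Acadm passed in WT hypoxia only without WT hypoxia glucose replicate 3 (-0.34, adjusted p = 0.0437), beside -0.25 ± 0.12, adjusted p = 0.0945 with all libraries. The median of the 10 genes was -0.10 in WT normoxia, -0.27 in WT hypoxia, 0.06 in KO normoxia and 0.09 in KO hypoxia, beside medians of all genes from 0.00 to 0.02. In WT the fibroblast marker sum moved with the sugar as well: it was 12784 to 17928 CPM with glucose and 5956 to 10048 CPM with fructose. Most of it was Col1a1, lower with fructose by 0.87 ± 0.09 in normoxia and 1.13 ± 0.09 in hypoxia. Col3a1 was lower in both too, by 2.58 ± 0.31 and 3.40 ± 0.33. Col1a2 passed in neither (-0.27 ± 0.29 and -0.56 ± 0.29). The smooth muscle and pericyte sum was 65.2 to 94.1 CPM with glucose and 178 to 284 CPM with fructose, with Acta2 higher by 2.91 ± 0.23 and 2.89 ± 0.23 in normoxia and hypoxia in turn, and Des also called higher in both. Pdgfrb (-0.25 ± 0.19 and -0.32 ± 0.19) and Cspg4 (-0.27 ± 0.29 and -0.08 ± 0.26) passed in neither. Myh11 passed in hypoxia alone, at 0.54 ± 0.21. Of the 7 endothelial markers tested 1 rose and 1 fell in WT normoxia, and 1 rose and 3 fell in WT hypoxia, with Icam2 at -1.06 ± 0.17. Of 5 epithelial markers 1 rose and 1 fell in WT normoxia and 1 rose and 2 fell in WT hypoxia, and none of 3 leukocyte markers passed in either. The part of these markers in the results on sugar was not tested.

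**Figure D4:**
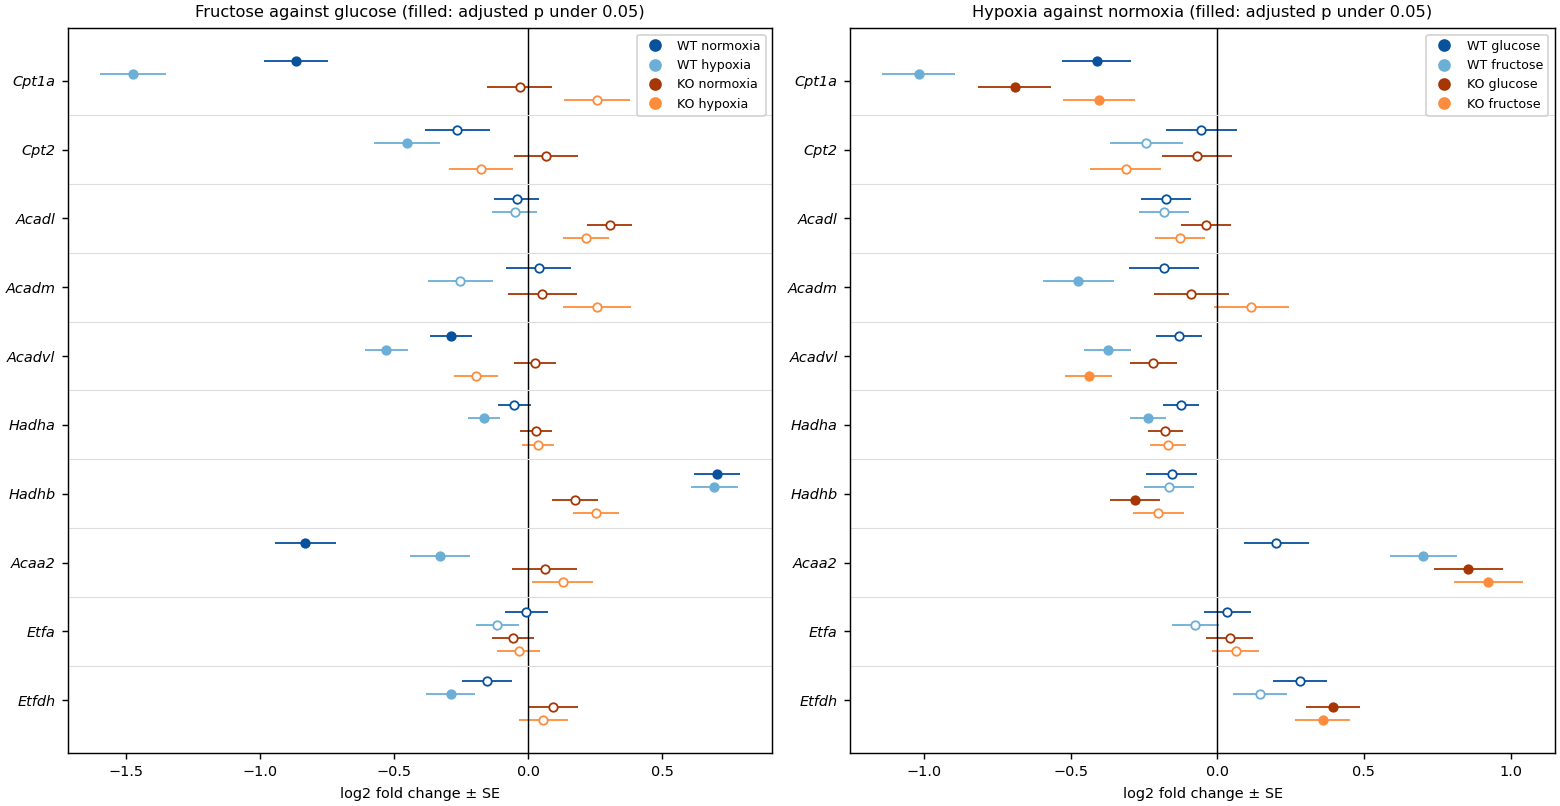
Log2 fold change ± SE of fructose against glucose (left) and of hypoxia against normoxia (right) for the 10 genes, with WT in blue and KO in brown and orange; filled points passed an adjusted p of 0.05. On the left no KO point is filled, and on the right Cpt1a is filled to the left of 0 in all 4 settings, from -1.02 to -0.40.

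The comparison of hypoxia with normoxia showed a fall of Cpt1a in all 4 settings and a rise of Acaa2 in 3. Cpt1a fell by 0.41 in WT glucose (SE 0.12, adjusted p = 0.0432), 1.02 in WT fructose (SE 0.12, adjusted p = 1.15e-06), 0.69 in KO glucose (SE 0.12, adjusted p = 0.000347) and 0.40 in KO fructose (SE 0.12, adjusted p = 0.0217). The first of these was lost in 5 of 6 omissions, all but that of WT normoxia glucose replicate 2, and its adjusted p ran from 0.0255 to 0.197. The last was lost without KO normoxia fructose replicate 2 (adjusted p = 0.0705) or replicate 3 (adjusted p = 0.108), or without KO hypoxia fructose replicate 1 (adjusted p = 0.0512) or replicate 2 (adjusted p = 0.121). In WT fructose Acadm (-0.47 ± 0.12, adjusted p = 0.00622), Acadvl (-0.37 ± 0.08, adjusted p = 0.0012) and Hadha (-0.24 ± 0.06, adjusted p = 0.00599, or 0.0509 in a fit of the compared groups alone) fell as well, and in KO fructose Acadvl did (-0.44 ± 0.08, adjusted p = 0.000333). Hadhb fell in KO glucose, -0.28 ± 0.09, adjusted p = 0.0293, a call lost without KO normoxia glucose replicate 1 (adjusted p = 0.0855) or replicate 2 (adjusted p = 0.155), or without KO hypoxia glucose replicate 1 (adjusted p = 0.118) or replicate 3 (adjusted p = 0.0655). Hadhb in WT fructose passed only without WT normoxia fructose replicate 3 (-0.26, adjusted p = 0.028). Hadha in KO glucose had an adjusted p of 0.0505, and passed without KO hypoxia glucose replicate 2 (-0.22, adjusted p = 0.039), with RLE scaling (adjusted p = 0.0491) and with DESeq2 (adjusted p = 0.0159).

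In counts, 0 of the 10 genes rose and 1 fell in WT glucose, where 3.39% and 1.42% of all genes were called higher and lower. In WT fructose 1 rose and 4 fell, against 11.3% and 9.91%. In KO glucose 2 rose and 2 fell, against 7.96% and 6.07%, and in KO fructose 2 rose and 2 fell, against 9.71% and 10.3%. The median log2 fold change of the 10 genes was -0.13, -0.21, -0.08 and -0.15 in the same order, beside medians of all genes from -0.02 to 0.00. In WT glucose the replicate block called a second gene, Etfdh (0.28, adjusted p = 0.0443). Deviations of same-numbered libraries correlated there at 0.10 to 0.23, but the labels state no pairing. Markers of other cell types moved with oxygen too. Des rose in hypoxia in all 4 settings, with values of 0.53 to 1.11, and Col1a1 fell in all 4, with values of -0.59 to -0.31. The pericyte marker Cspg4 rose in WT fructose and in both KO settings, with values of 0.97 to 1.18. Krt8 rose in both KO settings, by 0.50 ± 0.12 with glucose and 0.66 ± 0.12 with fructose. Epcam, Cdh1, Krt18 and Krt19 passed in neither KO setting. Of these, Epcam (-0.48 ± 0.34 and -0.17 ± 0.34) and Krt19 (-1.18 ± 0.42 and -0.74 ± 0.47) were negative in both. Krt18 was positive in both, and Cdh1 differed in sign between the sugars. Other members of these lists did not follow: Acta2, Myh11, Pdgfrb and Col1a2 passed in none of the 4 settings. In WT fructose the epithelial markers Epcam (-1.52 ± 0.46) and Krt19 (-1.24 ± 0.43) fell. The leukocyte marker Cd3e fell there too (-2.13 ± 0.59), while Csf1r rose (1.96 ± 0.36). The leukocyte marker sum, led by Csf1r, was 3.02 to 5.50 CPM in normoxic and 11.9 to 19.6 CPM in hypoxic KO libraries. Of 7 endothelial markers tested 0, 0, 1 and 0 rose and 0, 1, 0 and 0 fell in WT glucose, WT fructose, KO glucose and KO fructose. The part of these markers in the results on oxygen was not tested.

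Whether the response to sugar differed between the genotypes was tested as an interaction, the fructose response of KO minus that of WT. It passed for 4 of the 10 genes in normoxia, against 19.1% of all tested genes, and for 5 in hypoxia, against 25.6%. Cpt1a differed by 0.83 ± 0.17, adjusted p = 0.00104 in normoxia, beside 1.73 ± 0.17, adjusted p = 1.4e-07 in hypoxia, Hadhb by -0.53 ± 0.12, adjusted p = 0.00274 and -0.44 ± 0.12, adjusted p = 0.00884, and Acaa2 by 0.89 ± 0.17, adjusted p = 0.000377 and 0.46 ± 0.16, adjusted p = 0.0356. For Cpt1a and Acaa2 the sign means that the fall with fructose in WT was not matched in KO, and for Hadhb that the rise was smaller. Acadl passed in normoxia (0.35 ± 0.12, adjusted p = 0.0442), and Acadm (0.51 ± 0.18, adjusted p = 0.034) and Acadvl (0.33 ± 0.11, adjusted p = 0.0311) passed in hypoxia. These comparisons share their WT and KO groups with the simple comparisons above, so they are not further evidence for them.

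The calls of Cpt1a and Hadhb in both oxygen conditions, and of Acaa2 in normoxia, held in every omission of a single library. The others did not. Acadl in normoxia was lost in 10 of 12, all but those of WT normoxia fructose replicate 2 and KO normoxia glucose replicate 1, with adjusted p from 0.0148 to 0.127. In hypoxia Acadm was lost without WT glucose replicate 1 or 2, WT fructose replicate 2 or 3, KO glucose replicate 3 or KO fructose replicate 1, with adjusted p up to 0.107. Acadvl was lost there without WT glucose replicate 1, WT fructose replicate 2, KO glucose replicate 2 or 3, or KO fructose replicate 2 or 3, with adjusted p up to 0.101. Acaa2 was lost there in 8 of 12 omissions, all but those of WT glucose replicate 3, WT fructose replicate 3 and KO fructose replicate 1 or 2, with adjusted p up to 0.086. Calls also appeared in some omissions: Acadvl in normoxia passed in 3 of 12, Etfdh in hypoxia in 4 of 12 and Acadl in hypoxia in 1 of 12, beside 0.31 ± 0.11, adjusted p = 0.0523 for Acadvl, 0.35 ± 0.13, adjusted p = 0.0524 for Etfdh and 0.27 ± 0.12, adjusted p = 0.109 for Acadl with all libraries. Without the filter on low counts Acadl in normoxia (adjusted p = 0.0654) and Acadm, Acadvl and Acaa2 in hypoxia were lost. A fit of the compared groups alone lost Acadl (adjusted p = 0.0646) and Acadm (0.0518). Acadvl in normoxia passed with RLE scaling (adjusted p = 0.0443), the replicate block (0.0241) and DESeq2 (0.0329). So did Etfdh in hypoxia, with adjusted p up to 0.0384. Hadha in hypoxia passed with RLE scaling (adjusted p = 0.046) and DESeq2 (0.0175).

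The response to hypoxia was compared between the genotypes in the same way. None of the 10 genes passed with glucose, against 0.183% of all genes, or with fructose, against 2.11%. At an unadjusted p under 0.05 edgeR gave 1 gene with glucose, Acaa2 (0.66 ± 0.16, adjusted p = 0.152), and 2 with fructose, Cpt1a (0.62 ± 0.17, adjusted p = 0.0642) and Acadm (0.59 ± 0.18, adjusted p = 0.0816). DESeq2 called these 1 and 2 genes, with adjusted p of 0.0331 for Acaa2, 0.0184 for Cpt1a and 0.0311 for Acadm. With edgeR, Cpt1a passed with fructose without WT normoxia fructose replicate 2 (adjusted p = 0.022) or KO hypoxia fructose replicate 2 (adjusted p = 0.0304), and Acadm without the former (adjusted p = 0.0244). The interaction of sugar with oxygen passed for Cpt1a in WT, against 3.27% of all genes, at -0.61 ± 0.17, adjusted p = 0.049: the fall with fructose was wider in hypoxia. It was lost in 10 of 12 omissions, all but those of WT normoxia fructose replicate 2 and WT hypoxia fructose replicate 3, with adjusted p from 0.0177 to 0.145. In KO cells none of the 10 genes passed this interaction and none had an unadjusted p under 0.05 in edgeR or a call in DESeq2, where 0.00677% of all genes, a single gene, was called.

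The rest of the pathway was read from lists chosen with earlier results of these data known. Their counts stand beside the shares of all tested genes given above, 22.7% to 25.7% higher and 23.7% to 28.8% lower in KO over the 4 media, so that a count of 2 in 9 is near what all genes gave. Among 13 other matrix enzymes of beta-oxidation, of which 12 were tested, 2 were higher and 6 lower in KO normoxia glucose, 1 and 5 in normoxia fructose, 2 and 5 in hypoxia glucose and 1 and 4 in hypoxia fructose, with medians of -0.34, -0.18, -0.17 and -0.19. Hadh, the short-chain hydroxyacyl-CoA dehydrogenase, fell by 1.72 ± 0.21, adjusted p = 2.81e-07 in normoxia glucose, and Eci1, an enoyl-CoA isomerase, by 1.27 ± 0.16, adjusted p = 6.67e-07. Both also fell in normoxia fructose and hypoxia glucose, Hadh by 1.28 ± 0.21 and 1.27 ± 0.20 and Eci1 by 1.15 ± 0.16 and 0.94 ± 0.16. In hypoxia fructose the mean of Eci1 was 17.4 CPM in KO and 28.3 CPM in WT. The means of Acads and Acad10 were lower in KO in all 4 media. Acad9, a dehydrogenase that also serves the assembly of respiratory complex I, rose by 0.82 ± 0.09, adjusted p = 7.97e-08 in normoxia fructose and 0.72 ± 0.09, adjusted p = 6.81e-07 in hypoxia fructose. With glucose its mean was higher in KO as well, at 55.6 against 36.5 CPM in normoxia and 44.0 against 30.8 CPM in hypoxia. In WT hypoxia Hadh fell with fructose (-1.06 ± 0.20, adjusted p = 0.000106), as did the dienoyl-CoA reductase Decr1 (-0.61 ± 0.09, adjusted p = 3.29e-06) and Acat1 (-0.53 ± 0.08, adjusted p = 5.68e-06).

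Of the 5 carnitine genes besides Cpt1a and Cpt2, 2 were lower in KO in normoxia glucose, 3 in normoxia fructose, and 2 in each hypoxic medium, and 1 was higher in hypoxia fructose. The carnitine importer Slc22a5 fell in all 4 media, with values of -1.52 to -0.67, and so did the carnitine acetyltransferase Crat, with values of -0.74 to -0.54. Of 12 genes for uptake and activation of fatty acids, 8 were tested, and 2 were higher and 2 lower in KO normoxia glucose, 3 and 3 in normoxia fructose, 3 and 3 in hypoxia glucose and 4 and 2 in hypoxia fructose. With fructose 4 were higher and 0 lower in WT normoxia, beside 19.9% and 17.9% of all genes, and 4 and 2 in WT hypoxia, beside 24.6% and 20.9%. Acsl1, a long-chain acyl-CoA synthetase, fell in KO in all 4 media, with values of -1.08 to -0.99, while Acsl4, which prefers polyunsaturated chains, rose in all 4, with values of 0.30 to 0.70. In WT, fructose went with a higher level of the transporter Slc27a4, by 1.09 ± 0.10, adjusted p = 9.89e-09 in normoxia, beside 1.14 ± 0.10, adjusted p = 2.56e-09 in hypoxia.

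Peroxisomes shorten very long chains by a separate set of enzymes. Of 10 such genes 9 were tested; 2 were higher and 2 lower in KO normoxia glucose, 2 and 2 in normoxia fructose, 2 and 3 in hypoxia glucose and 5 and 3 in hypoxia fructose. In WT hypoxia 1 of the 9 rose with fructose and 6 fell, beside 24.6% and 20.9% of all genes. Among the 6 was the acyl-CoA oxidase Acox3 at -0.71 ± 0.14, adjusted p = 0.000246. Among 12 regulators of the pathway 8 were tested, with 2 higher and 2 lower in KO normoxia glucose, 2 and 3 in normoxia fructose, 2 and 2 in hypoxia glucose and 3 and 3 in hypoxia fructose. With fructose 5 of the 8 rose in WT normoxia and 4 in WT hypoxia, and none fell in either, beside 19.9% of all genes called higher in the first and 24.6% in the second. Ppard, a nuclear receptor for fatty acids, rose in KO in all 4 media, with values of 0.79 to 1.14, and its partner Rxra fell in all 4, with values of -1.92 to -1.01. Ppara was present at 0.0570 to 1.55 CPM, and Pparg, Ppargc1a, Ppargc1b and Acacb stayed at or below 0.513 CPM and were not tested. Of 8 PPAR targets outside beta-oxidation 4 were tested, and 1 was higher in KO in each medium, while 2 were lower in 3 media and 3 in normoxia fructose. The uncoupling protein gene Ucp2 rose in KO in all 4 media, with values of 0.26 to 1.68 (adjusted p = 0.0498 in hypoxia glucose), and the lipid droplet gene Plin2 fell in all 4, with values of -0.58 to -0.19. The classical targets Pdk4 and Ucp3 stayed at or below 0.270 and 0.157 CPM.

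Over the 8 group means of log2 CPM, the 10 genes fell into patterns that are described here without a test, since the points share their libraries. Acadl and Acadm were most alike, with a Pearson correlation of 0.938 over 8 groups, followed by Cpt1a and Acadvl at 0.912 and Cpt2 and Hadha at 0.887. Hadha and Hadhb, which form 1 complex, correlated at 0.495, and Acadm and Etfa at -0.934. Among 10126 genes with a mean log2 CPM of at least 1, those closest to Cpt1a were Top1 at 0.995, Zfp36l1 at 0.986 and Nipa1 at 0.984. The closest to each of the others were C5ar2 for Cpt2 (0.993), Heatr6 for Acadl (0.980), Pde1a for Acadm (0.995), Lrrc75b for Acadvl (0.996), Cd80 for Hadha (0.993), Serpinf1 for Hadhb (0.995), Cr1l for Acaa2 (0.975), Arhgef6 for Etfa (0.995) and Sv2b for Etfdh (0.942). These are the highest values of 10126 candidates, each over 8 points.

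RefSeq promoter windows of GRCr8 were found for 8 of the 10 genes, all but Acadl and Acaa2, and were searched on both strands. The nuclear receptor half-site AGGTCA, present in 16.2% of all 33469 windows, occurred once in the Hadhb window and 2 times in that of Acadvl. The longer TCAAGGTCA, bound by estrogen-related receptors and containing the half-site, occurs in 0.433% of all windows and in none of these 8. The hypoxia response core ACGTG, in 19.3% of all windows, occurred once each in Etfa and Etfdh. The GC box GGGCGG, in 33.1% of windows, occurred 4 times in Hadhb, 3 times each in Acadm and Cpt2, and once each in Hadha and Etfdh, and CCAAT, in 37.5% of windows, 3 times in Etfa and once in Hadha. These are matches of letters in short windows and say nothing about binding.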

How the data were processed

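RNA of 24 samples, 3 in each of 8 groups, was sequenced, and the authors deposited a table of raw counts per gene; HISAT2, DESeq2 and Rnor_6.0 are named in the submitters' processing notes, while the sources used here state neither versions, nor the counting program, nor strand. Of the table, 34523 genes were used, and 5 emptied lines were not used here. Genes were filtered with filterByExpr (minimum count 10, minimum total 15), scaled by TMM and tested with edgeR 4.0.16 (limma 3.58.1, R 4.3.3): 1 quasi-likelihood fit of all 24 libraries to 8 group means, with 12 simple comparisons and 6 interactions, Benjamini-Hochberg adjustment over 14770 genes and a threshold of 0.05. Each SE was derived from the test statistic, and each 95% interval from the SE and the t distribution. Log2 levels carry a pseudocount of 0.5. The code was tested on simulated data. Figures used Python 3.11.15, pandas 2.3.3 and matplotlib 3.10.9.

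The 10 genes and all lists (6 of pathway genes and 5 of markers, 92 of 94 names matched) were chosen with earlier results of these data known. From a list at most 4 genes in a comparison were named, those of largest absolute log2 change past the threshold with a mean log2 CPM of at least 1. Beyond these, listed genes are named by level, or as members of a marker list that did not pass or went the other way. Alternatives were RLE scaling, no filter, the replicate number as a block, a fit of the compared groups alone, DESeq2 1.42.0, and leaving out each library. The replicate numbers come from the labels. Correlations of deviations of same-numbered libraries from their group means ran from -0.0152 to 0.329, and exceeded 0.1 in every pair in 2 of 12 simple comparisons: fructose against glucose in WT normoxia and hypoxia against normoxia in WT glucose.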

Additional observations from a re-analysis of the deposited data

Results flagged for a closer look

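The values below were singled out because an effect differed between groups, by the test of an interaction term. The response to fructose differed between KO and WT (KO minus WT, log2 scale, SE) in normoxia for Cpt1a by 0.83 ± 0.17, Acadl by 0.35 ± 0.12, Hadhb by -0.53 ± 0.12 and Acaa2 by 0.89 ± 0.17. In hypoxia it differed for Cpt1a by 1.73 ± 0.17, Acadm by 0.51 ± 0.18, Acadvl by 0.33 ± 0.11, Hadhb by -0.44 ± 0.12 and Acaa2 by 0.46 ± 0.16. The response of Cpt1a to fructose in WT differed between the oxygen conditions by -0.61 ± 0.17 (hypoxia minus normoxia). Groups of 3 libraries are too small for a test of single libraries that stand apart.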

How the results depend on the processing

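Of the 67 calls among 180 results of the 10 genes, 53 were kept whichever library was left out, 14 were lost in at least 1 omission, and 13 others appeared in at least 1. All 5 other settings kept 60 of the 67, and no called value changed sign. RLE scaling moved no count by over 1.5 times. Without the filter 2 genes in place of 5 passed for genotype by sugar in hypoxia, and 0 in place of 1 for sugar by oxygen in WT. In a fit of the compared groups alone, fructose against glucose in KO hypoxia gave 1 in place of 0 and sugar by oxygen in WT gave 0 in place of 1. DESeq2 gave 1 in place of 0 for fructose against glucose in KO normoxia and for genotype by oxygen with glucose, 2 in place of 0 for genotype by oxygen with fructose, and 2 in place of 1 for hypoxia against normoxia in WT glucose and for sugar by oxygen in WT. With 1 library left out, the counts ran from 0 to 1 for hypoxia against normoxia in WT glucose, for sugar by oxygen in WT and for fructose against glucose in KO normoxia, from 0 to 2 for genotype by oxygen with fructose, and from 2 to 6 for genotype by sugar in hypoxia. The cause was not tested.

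With the replicate number as a block, 1 gene in place of 0 passed for fructose against glucose in KO normoxia, in KO hypoxia and for genotype by oxygen with glucose, 2 in place of 0 for genotype by oxygen with fructose, 2 in place of 1 for hypoxia against normoxia in WT glucose and for sugar by oxygen in WT, and 7 in place of 4 for hypoxia against normoxia in KO fructose. Of the 24 libraries 21 were closest on average to libraries of their own number, a hint from the data and not from the design. In the 2 comparisons where every same-numbered pair correlated above 0.1, the block changed no call but that of Etfdh given above.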
